A study of Mus musculus with 2 samples.

Results

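The Janus kinases (JAK) and the signal transducers and activators of transcription (STAT) carry signals of cytokines and interferons from the cell surface to the nucleus. The genes described here were chosen by symbol, Jak1, Jak2, Jak3, Tyk2, Stat2, Stat3, Stat5a, Stat5b and Stat6, which gives 9 members among 22350 gene symbols in the files. All 9 were listed in both libraries, and all 9 had a mean of at least 1 FPKM (fragments per length of transcript in kilobases, relative to all mapped fragments), as did 12429 genes in all. The family is not covered in full, and its other genes are not analysed here.

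Messenger RNA came from colon epithelial cells of C57BL/6 mice of the Pkm2-/- genotype, which lacks the M2 form of the glycolytic enzyme pyruvate kinase, and from those of wild type mice. The mice of both genotypes had taken 2.5% dextran sulfate sodium (DSS), which injures the lining of the colon, for 3 days. There was 1 library per genotype, so nothing here has a replicate check and no test was possible. The sources used here give neither the construction of the allele, nor the age of the mice, nor the number of animals in a library, and no library without DSS was analysed. Depth, read from the smallest values, was about 21500000 fragments for the Pkm2-/- library and 18900000 for the wild type library. Pkm, the targeted gene, stood at 86.2 FPKM in the Pkm2-/- library and 281 FPKM in the wild type library, a ratio of 0.307 (95% counting interval 0.296 to 0.317), and a gene-level value covers both of its isoforms. The epithelial markers were present in both libraries, led by the mucin gene Muc2 at 7504 FPKM in the Pkm2-/- library and 7418 FPKM in the wild type library.

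A JAK kinase sits on the inner tail of a cytokine receptor. When the cytokine joins the receptor chains, the kinases phosphorylate each other and the tails, STAT proteins dock there, are phosphorylated in turn, pair up and enter the nucleus. The type I interferon receptor uses TYK2 and JAK1 and sends out a complex of STAT2, a partner STAT and IRF9, called ISGF3, which binds the interferon-stimulated response element (ISRE). Other STAT pairs bind the gamma-activated sequence (GAS), and STAT3 acts downstream of interleukins that drive repair of the gut lining. Transcript levels say nothing of phosphorylation, by which these proteins are switched on.

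The upstream sequence of Stat2 is shown because this gene had the largest difference of the 9, and because it was the only member whose upstream window held an ISRE core. The window is the 250 bases before the gene's start in RefSeq (GRCm38.p6), at chr10:128270248-128270497 on the plus strand, and no annotated exon overlaps it. The search used GAAANNGAAA for the ISRE core on both strands, and capitals mark the match, read here as its reverse complement. It began 222 bases before the start.

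Stat2: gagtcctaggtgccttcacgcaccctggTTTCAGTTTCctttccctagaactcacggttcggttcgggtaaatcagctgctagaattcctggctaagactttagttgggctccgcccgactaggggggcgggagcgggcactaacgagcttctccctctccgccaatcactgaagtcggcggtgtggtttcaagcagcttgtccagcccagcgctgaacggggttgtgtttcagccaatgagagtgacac

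The ISRE core occurred in 2.98% of all 32851 windows of the same length. The GAS letters TTCNNNGAA, which read the same on both strands, occurred in 7.02% of all windows and in none of the 11 windows of the 9 members. The form with a longer spacer, TTCNNNNGAA, occurred in 5.85% of all windows and among the members in Stat2 alone, where it did not overlap the ISRE core. A match is a description of the letters, not a binding site.

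Stat5a and Stat5b, neighbouring genes on chromosome 11 that arose by duplication, shared a stretch of upstream sequence. It is shown because these genes code for close copies of 1 protein and were both higher in the Pkm2-/- library. Each gene had more than 1 upstream window, and the pair that shared the most 12-base words was used. In the Stat5a window 139 of the 250 bases lie in annotated exons. The Stat5b window lies inside the annotated span of Stat5b, outside exons. The capitals mark the longest run that both windows of this pair held, 16 bases, with 7 bases on either side. It began 32 bases before a start of Stat5a (chr11:100860445-100860474, plus strand) and 23 bases before a start of Stat5b (chr11:100822571-100822600, minus strand), both in GRCm38.p6 from RefSeq.
Stat5a: tttgaggAGGAAATCGCTGCTCTctgctcc
Stat5b: ttttagaAGGAAATCGCTGCTCTttgcttc

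The 4 kinases differed little between the libraries. Summed over the 4, the level was 59.98 FPKM in the Pkm2-/- library and 60.5 FPKM in the wild type library. None of the 9 JAK and STAT members was 2-fold apart on the log2(FPKM + 1) scale, where 1.42% of all 12429 genes were at least 2-fold higher and 1.90% at least 2-fold lower in the Pkm2-/- library. None was 1.5-fold apart either, against 4.46% of all genes at least 1.5-fold higher and 5.29% at least 1.5-fold lower, so that a count of 0 among 9 genes is near the background.

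Jak1, the kinase that interferon receptors and most interleukin receptors share, had 27.7 FPKM in the Pkm2-/- library and 27.3 FPKM in the wild type library. The ratio was 1.02, and its 95% counting interval (0.963 to 1.07) held 1. This interval rests on about 2925 fragments in the Pkm2-/- library and 2526 in the wild type library, and like all intervals here it covers counting error only, not differences between animals or preparations.

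Jak2, which serves the interferon-gamma receptor and the receptors of growth hormone, prolactin and erythropoietin, was the only 1 of the kinases with a ratio below 1. It stood at 15.6 FPKM in the Pkm2-/- library and 17.7 FPKM in the wild type library, a ratio of 0.883 (95% counting interval 0.825 to 0.945). Of all 12429 genes, 22.2% had a lower log2 ratio than Jak2.

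Tyk2, the partner of JAK1 on the type I interferon receptor, had 9.79 FPKM in the Pkm2-/- library and 8.89 FPKM in the wild type library, a ratio of 1.101 (95% counting interval 1.003 to 1.21). An antisense gene, 1700084C06Rik, overlaps 8.07% of the exonic bases of Tyk2 and shares 1 locus with it in the files. Whether the counting used strand is not given in the sources used here, so reads of both genes cannot be told apart.

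Jak3, which works with the common gamma chain of interleukin receptors and is best known from lymphocytes, had 6.87 FPKM in the Pkm2-/- library and 6.70 FPKM in the wild type library. The ratio was 1.03 (95% counting interval 0.911 to 1.16). Of its exonic bases 7.55% also belong to Insl3, so part of its value could be split between both genes.

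The order of the kinases by FPKM, a value per transcript length, was Jak1, Jak2, Tyk2 and Jak3 in both libraries, and neighbours in that order differed beyond counting error in each. Jak1 made up 46.2% of the summed kinase level in the Pkm2-/- library and 45.0% in the wild type library. Jak2 made up 26.0% in the Pkm2-/- library and 29.2% in the wild type library, Tyk2 16.3% in the Pkm2-/- library and 14.7% in the wild type library, and Jak3 11.5% in the Pkm2-/- library and 11.1% in the wild type library. The shares do not depend on how a library is scaled.

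**Figure D1:**
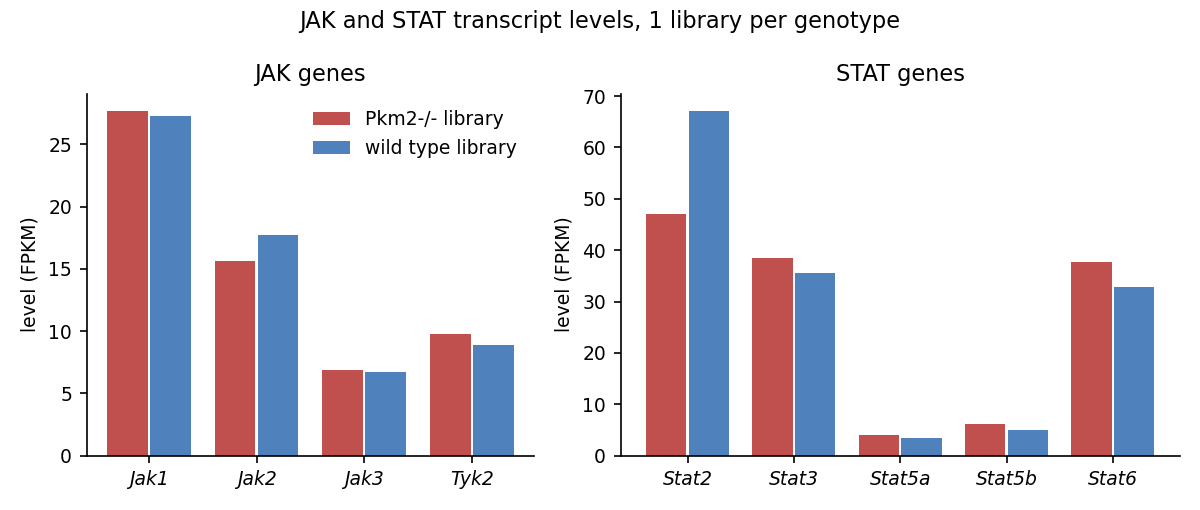
Level in FPKM (linear axes from 0) of the 4 JAK genes on the left and the 5 STAT genes on the right, with the Pkm2-/- library in red and the wild type library in blue, 1 library each and so without error bars. Stat2 shows the widest gap between bars, at 47.1 FPKM in the Pkm2-/- library and 67.1 FPKM in the wild type library.

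Among the STAT genes, Stat2 stood apart from the other 4. Stat2, the member that joins IRF9 in ISGF3, had 47.1 FPKM in the Pkm2-/- library and 67.1 FPKM in the wild type library. The ratio was 0.701 (95% counting interval 0.674 to 0.729), from about 4455 fragments in the Pkm2-/- library and 5575 in the wild type library. Of all 12429 genes, 6.69% had a lower log2 ratio. Its log2 ratio was -0.50, and with the libraries scaled to equal medians it was -0.59, which passes the 1.5-fold line.

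Stat3, which mediates signals of the interleukin-6 and interleukin-10 families, had 38.5 FPKM in the Pkm2-/- library and 35.5 FPKM in the wild type library, a ratio of 1.09 (95% counting interval 1.04 to 1.13). Stat6, the factor of interleukin-4 and interleukin-13 signals, had 37.7 FPKM in the Pkm2-/- library and 32.8 FPKM in the wild type library, a ratio of 1.15 (95% counting interval 1.09 to 1.21). Both differences are small beside Stat2, and the median log2 ratio of all genes lay above 0 too, at 0.06.

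Stat5a and Stat5b, which share much of their sequence and act downstream of growth hormone, prolactin and interleukin-2, were the lowest of the family and had the 2 highest ratios. Stat5a had 4.03 FPKM in the Pkm2-/- library and 3.39 FPKM in the wild type library, a ratio of 1.19 (95% counting interval 1.01 to 1.41). Stat5b had 6.12 FPKM in the Pkm2-/- library and 5.03 FPKM in the wild type library, a ratio of 1.22 (95% counting interval 1.08 to 1.37). Of the 31-base words of their annotated transcripts, 12.3% of those of Stat5a and 15.2% of those of Stat5b occur in transcripts of another gene too, 836 of them in both Stat5 genes, so the separate values are somewhat uncertain.

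Some members share a chromosome. Stat2 and Stat6 both lie on chromosome 10 (128270559 to 128292849 and 127642986 to 127660957 on GRCm38), Stat2 with a ratio of 0.701 and Stat6 with one of 1.15. Stat3 (chromosome 11, 100885098 to 100939540) and Stat5a (100859351 to 100885169) overlap at their ends, so that the authors' files give both the same locus, and 0.756% of the exonic bases of Stat3 overlap Stat5a. Stat5b (100780731 to 100850724) lies beside them. The kinase genes are spread over chromosomes 4, 19, 8 and 9 for Jak1, Jak2, Jak3 and Tyk2.

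Stat2 made up 35.3% of the summed level of the 5 STAT genes in the Pkm2-/- library and 46.7% in the wild type library. The order Stat2, Stat3, Stat6, Stat5b and Stat5a was the same in both. In the Pkm2-/- library Stat3 over Stat6 was 1.02 (95% counting interval 0.978 to 1.07), so these neighbours did not differ beyond counting error, whereas in the wild type library the ratio was 1.08 (1.03 to 1.14). The step to Stat5b was the widest, with Stat6 at 6.15 times its level in the Pkm2-/- library and 6.52 times in the wild type library.

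**Figure D2:**
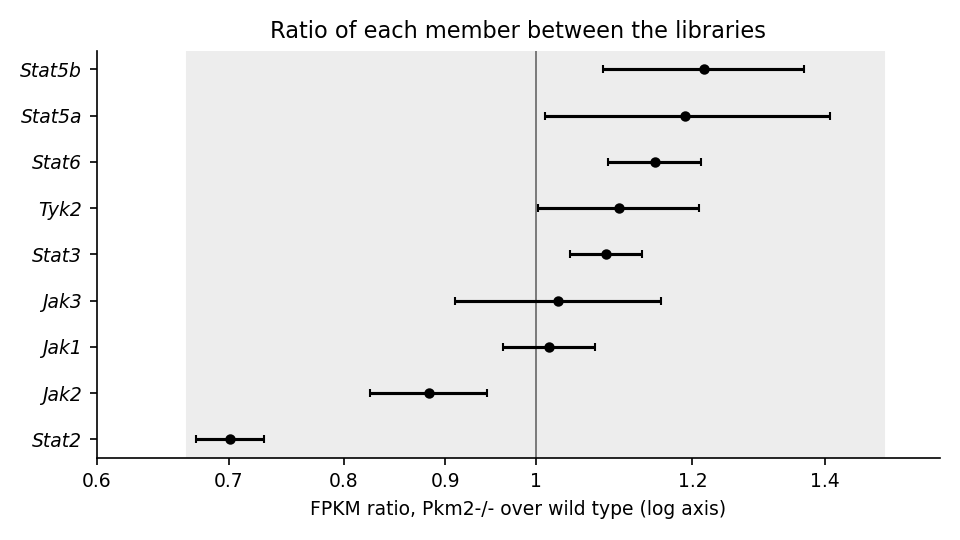
FPKM ratio of Pkm2-/- over wild type (log axis) of the 9 members, with 95% counting intervals as bars and the range within 1.5-fold shaded in grey. Stat2 lies lowest at 0.701 and Stat5b highest at 1.22, and the intervals of Jak1 and Jak3 cross 1.

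Across the 9 members, 7 had a log2 ratio above 0, against 58.8% of all genes, and the median was 0.12 beside 0.06 over all genes. Jak1 and Jak3 turned to -0.06 and -0.04 with equal library medians and to -0.04 and -0.02 with equal upper quartiles, so these have no direction of their own. The members' ratios spread from -0.50 for Stat2 to 0.24 for Stat5b. The counting interval left out 1 for 5 members on the higher side and 2 on the lower side, while over 12401 genes with a known length it did so for 38.4% on the higher and 23.3% on the lower side. At this depth an interval that leaves out 1 is thus common.

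With 2 libraries, a pattern is only a level and a ratio. By distance in the plane of log2(FPKM + 1) over the 2 libraries, the genes nearest to Stat2 were Ifi35, an interferon-induced gene, at 45.98 FPKM in the Pkm2-/- library and 68.3 FPKM in the wild type library (distance 0.04), and Acsl3, an acyl-CoA synthetase gene (distance 0.05). Near Jak2 lay Tor1b and Dirc2, near Jak1 Stx12 and Shc1, near Jak3 Polr1e and Gm42445, and near Tyk2 St5 and Nol6. Mpc2 and Lamtor5 lay nearest to Stat3, Ndufa1 and Ppm1b to Stat6, Cenpt and Med18 to Stat5a, and Nt5m and Tppp3 to Stat5b. These genes lay at most 0.02 from their member.

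The cytokines that start the pathway were scarce. Of 31 ligand genes 4 had a mean of at least 1 FPKM, and 10 were listed in neither library, among them those of interleukin-4, interleukin-6, interleukin-13 and interleukin-22. Il15, the ligand of a receptor that uses JAK1 and JAK3, was lower, at 4.48 FPKM in the Pkm2-/- library and 10.1 FPKM in the wild type library. Lif, of the interleukin-6 family, was higher, at 3.89 FPKM in the Pkm2-/- library and 1.93 FPKM in the wild type library, while Thpo (1.53 FPKM in Pkm2-/-, 1.21 FPKM in wild type) and Cntf (1.01 FPKM in Pkm2-/-, 1.35 FPKM in wild type) had counting intervals that held 1. Ifng, named after its values were seen, was listed at 0.667 FPKM in the Pkm2-/- library and was not listed in the wild type library.

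Of 20 measured receptor chains 3 were at least 2-fold higher and none was as much lower, against 1.42% and 1.90% of all genes. The median log2 ratio of the chains was 0.09. The 3 were chains of lymphocyte cytokine receptors. Il2rb, the beta chain for interleukin-2 and interleukin-15 and a partner of JAK1, had 5.27 FPKM in the Pkm2-/- library and 1.35 FPKM in the wild type library. Il21r stood at 2.88 FPKM in the Pkm2-/- library and 0.648 FPKM in the wild type library. It reached a mean of 1 FPKM only through its Pkm2-/- value. Il2rg, the common gamma chain to which JAK3 binds, was the third, at 5.56 FPKM in the Pkm2-/- library and 1.90 FPKM in the wild type library, a ratio of 2.93 (95% counting interval 2.18 to 3.97). Jak3 itself, at a ratio of 1.03, did not go with it. All 3 fell short of 2-fold with a pseudocount of 5.

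Among chains with a mean of at least 1 FPKM, the lowest ratios were those of 2 receptors that signal through JAK2. Prlr, the prolactin receptor, had 3.22 FPKM in the Pkm2-/- library and 4.63 FPKM in the wild type library, and Ghr, the growth hormone receptor, 3.31 FPKM in the Pkm2-/- library and 4.396 FPKM in the wild type library. Il20rb, below that level and named after its values were seen, was lower still, at 0.490 FPKM in the Pkm2-/- library and 1.18 FPKM in the wild type library, a ratio of 0.416 (95% counting interval 0.254 to 0.648). The following chains were chosen after their values were seen, because they pair with members. Ifngr1, the ligand-binding chain for interferon-gamma, had 65.8 FPKM in the Pkm2-/- library and 82.0 FPKM in the wild type library, and Ifngr2, which carries JAK2, 27.3 FPKM in the Pkm2-/- library and 29.1 FPKM in the wild type library. Ifnar1, which carries TYK2, had 13.2 FPKM in the Pkm2-/- library and 9.98 FPKM in the wild type library, and Ifnar2, which carries JAK1, 5.41 FPKM in the Pkm2-/- library and 3.76 FPKM in the wild type library. The chains of the type III interferon receptor went the other way. Ifnlr1 had a ratio of 0.823 (95% counting interval 0.706 to 0.961) and Il10rb one of 0.877 (0.821 to 0.935). Il4ra, upstream of STAT6, stood at 20.6 FPKM in the Pkm2-/- library and 12.3 FPKM in the wild type library.

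Immune cell markers differed between the libraries, which bears on Jak3 as a gene known from lymphocytes. All 12 measured T and NK cell markers were at least 1.5-fold higher in the Pkm2-/- library, against 4.46% of all genes. Of the 12 markers 10 were at least 2-fold higher, against 1.42% of all genes. All 15 summed to 129 FPKM in the Pkm2-/- library and 34.6 FPKM in the wild type library, led by Gzma (25.03 FPKM in Pkm2-/-, 3.34 FPKM in wild type), a granule protease. In bulk RNA fewer cells of a type and less RNA per cell cannot be told apart, and the part of these cells in the values of Jak3, Il2rb, Il2rg and Il21r was not tested. The B and plasma cell markers summed to 32.2 FPKM in the Pkm2-/- library and 8.42 FPKM in the wild type library, led by Igkc (16.8 FPKM in Pkm2-/-, 3.81 FPKM in wild type), and the macrophage and dendritic cell markers to 48.4 FPKM in the Pkm2-/- library and 37.7 FPKM in the wild type library, led by Cd14 (24.1 FPKM in Pkm2-/-, 26.7 FPKM in wild type). The macrophage and dendritic cell list was mixed. Of its 8 measured markers 3 were at least 2-fold higher (1.42% of all genes) and none was 1.5-fold lower (5.29% of all genes). Its median log2 ratio was 0.58, while Cd14, Cd68 and Lyz2 had log2 ratios below 0. Cd68 and Lyz2, named after their values were seen, had ratios of 0.956 and 0.924, with counting intervals that held 1. The 3 at least 2-fold higher, also named after their values were seen, were Fcer1g (4.22 FPKM in Pkm2-/-, 0.804 FPKM in wild type), Laptm5 (9.84 FPKM in Pkm2-/-, 3.29 FPKM in wild type) and Itgax (1.71 FPKM in Pkm2-/-, 0.355 FPKM in wild type). Fcer1g and Itgax reached a mean of 1 FPKM only through their Pkm2-/- values. Of the T and NK cell, B and plasma cell, and macrophage and dendritic cell markers none was at 0 in either library. Of 5 neutrophil markers S100a8 and S100a9 were listed in neither, and Ly6g stood at 13.1 FPKM in the Pkm2-/- library and 25.4 FPKM in the wild type library. Ly6g was the only 1 with a mean of at least 1 FPKM. Cxcr2 (0.016 FPKM in Pkm2-/-, 0.082 FPKM in wild type) and Csf3r (0.053 FPKM in Pkm2-/-, 0.014 FPKM in wild type), named after their values were seen, were near 0. Stromal and endothelial markers summed to 11.5 FPKM in each library, led by Vim (9.76 FPKM in Pkm2-/-, 6.80 FPKM in wild type), but the equal sum hides opposite differences. The fibroblast genes Dcn (0.870 FPKM in Pkm2-/-, 2.65 FPKM in wild type) and Col3a1 (0.239 FPKM in Pkm2-/-, 1.2002 FPKM in wild type), named after their values were seen, were lower, at ratios of 0.328 (95% counting interval 0.254 to 0.421) and 0.199 (0.130 to 0.304). None of the 12 epithelial markers was 1.5-fold apart, but 11 had a log2 ratio above 0, against 58.8% of all genes. The median log2 ratio of these markers was 0.21, beside 0.06 over all genes.

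**Figure D3:**
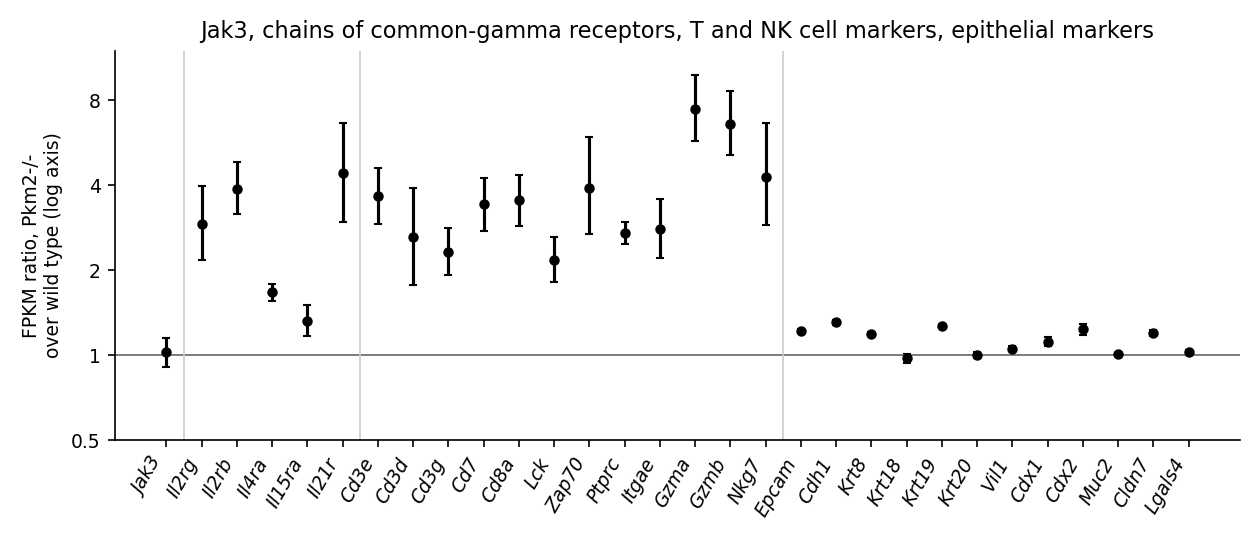
FPKM ratio of Pkm2-/- over wild type (log axis) with 95% counting intervals, from left to right for Jak3, 5 chains of receptors that use the common gamma chain, 12 T and NK cell markers and 12 epithelial markers, all with a mean of at least 1 FPKM. Jak3 lies at 1.03, Il2rg at 2.93 and Gzma at 7.48.

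Inhibitors of the kinases held the widest differences close to the members. Socs1, a target of interferon-gamma signals whose protein blocks JAK1, JAK2 and TYK2, had 88.0 FPKM in the Pkm2-/- library and 10.04 FPKM in the wild type library, a ratio of 8.77 (95% counting interval 8.04 to 9.59). Socs3, a target of STAT3 whose protein blocks JAKs at the receptor chain gp130, went the other way, with 7.63 FPKM in the Pkm2-/- library and 24.3 FPKM in the wild type library, a ratio of 0.314 (0.280 to 0.351). Ptprc, a phosphatase of blood cells that also marks them, stood at 16.1 FPKM in the Pkm2-/- library and 5.94 FPKM in the wild type library, and Usp18, which blocks the type I interferon receptor, at 20.7 FPKM in the Pkm2-/- library and 51.6 FPKM in the wild type library. Of all 19 negative regulators 2 were at least 2-fold higher and 2 at least 2-fold lower, against 1.42% and 1.90% of all genes. The median log2 ratio of the regulators was 0.15. With a pseudocount of 5 only 1 of them was at least 2-fold higher, Socs1. The other 15, among them the PIAS proteins and the phosphatase genes Ptpn1 and Ptpn2, were within 1.5-fold.

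Of 7 measured partners and adaptors none was 1.5-fold apart, against 4.46% of all genes at least 1.5-fold higher and 5.29% at least 1.5-fold lower. Irf9, which joins STAT2 in ISGF3, had 38.2 FPKM in the Pkm2-/- library and 50.97 FPKM in the wild type library, a ratio of 0.749 (95% counting interval 0.714 to 0.786), on the same side as Stat2. Nmi, which binds STAT proteins, stood at 45.3 FPKM in the Pkm2-/- library and 46.5 FPKM in the wild type library. The coactivator gene Crebbp (7.45 FPKM in Pkm2-/-, 6.43 FPKM in wild type) was slightly higher. The adaptor gene Sh2b1 (21.6 FPKM in Pkm2-/-, 20.4 FPKM in wild type) had a counting interval that held 1.

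Taken as lists, the 2 sets of interferon targets differed far more than the members. The STAT5-type targets, with a median log2 ratio of 0.03, had none 2-fold apart. All 24 ISGF3-type targets were lower in the Pkm2-/- library, 17 of them by 2-fold or more, and the median log2 ratio was -1.20. The widest gaps were those of Ifit3, at 7.24 FPKM in the Pkm2-/- library and 62.3 FPKM in the wild type library, and Rsad2, at 5.20 FPKM in the Pkm2-/- library and 43.8 FPKM in the wild type library, both antiviral effectors, and the narrowest those of Zbp1 (90.1 FPKM in Pkm2-/-, 99.0 FPKM in wild type) and Ifitm3 (102 FPKM in Pkm2-/-, 137 FPKM in wild type). Ifit3 has a close copy in the genome, so its value is uncertain. All 26 interferon-gamma-type targets were higher, 24 of them by 2-fold or more, and their median was 2.51, from Gbp3 (55.9 FPKM in Pkm2-/-, 31.7 FPKM in wild type) and Irgm1 (227 FPKM in Pkm2-/-, 124 FPKM in wild type), which are GTPases, to H2-Aa (648 FPKM in Pkm2-/-, 9.95 FPKM in wild type), an MHC class II chain, and Ido1 (1037 FPKM in Pkm2-/-, 10.3 FPKM in wild type), which breaks down tryptophan. Over all 12429 genes 1.42% were at least 2-fold higher and 1.90% at least 2-fold lower. Both target lists were drawn up with the direction of many of their genes in these libraries known, so the counts are no independent evidence. The T and NK cell markers, at 129 FPKM in the Pkm2-/- library and 34.6 FPKM in the wild type library, and the B cell markers were higher alongside the interferon-gamma-type targets, and their part in those values was not tested.

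**Figure D4:**
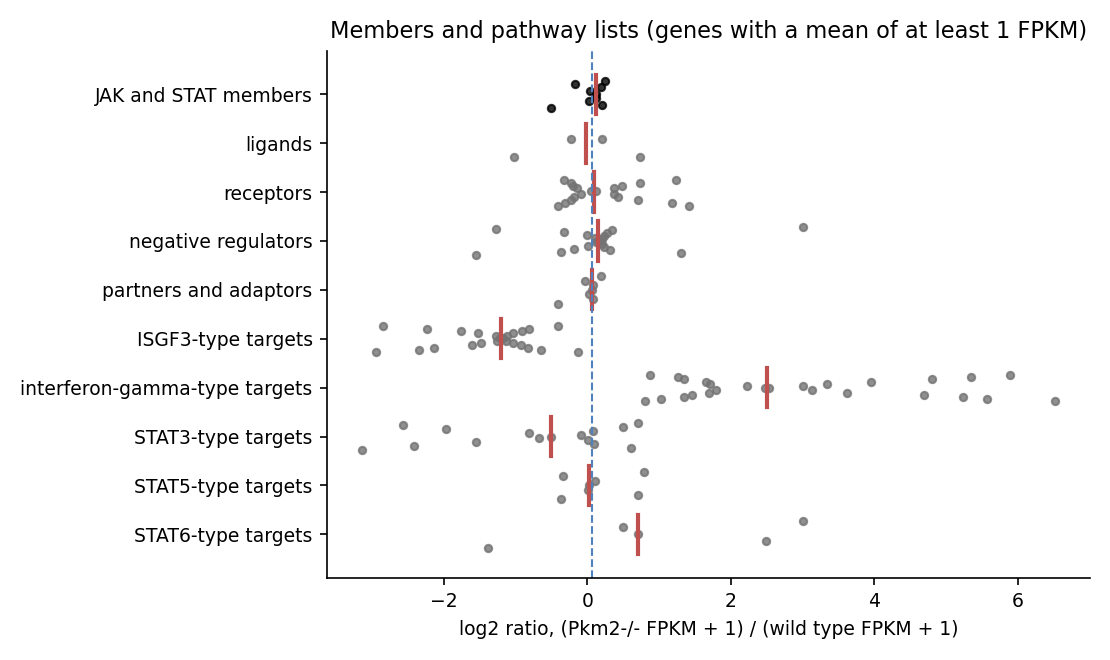
Log2 ratio of Pkm2-/- over wild type, (FPKM + 1) over (FPKM + 1), for each gene with a mean of at least 1 FPKM in the 9 members and in 9 pathway lists, with the list's median as a red bar and the median of all genes, 0.06, as a dashed blue line. The members lie between -0.50 and 0.24, while the ISGF3-type targets have a median of -1.20 and the interferon-gamma-type targets one of 2.51.

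Upstream windows of both target groups held the same letters. The ISRE core was found in the window of 7 of 17 ISGF3-type targets with a window and in 10 of 17 interferon-gamma-type targets, against 3.46% of all genes. The GAS letters were found in 3 ISGF3-type and 7 interferon-gamma-type targets, against 8.13% of all genes. Examples follow, with the match in capitals and at most 10 bases on either side, from RefSeq on GRCm38.p6, for genes that were lower (Ifit3, Rsad2 and Socs3) and higher (Socs1, Gbp2 and Irf1) in the Pkm2-/- library, the genes Gbp2 and Irf1 chosen after their values were seen. Genes that differed in opposite directions carried matches of the same kind. Socs1 also held a second ISRE core match, not printed here, which overlaps the match shown.
Ifit3, ISRE core, chr19:34583363-34583392, plus strand: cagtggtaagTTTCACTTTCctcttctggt
Ifit3, second ISRE core, chr19:34583397-34583426, plus strand: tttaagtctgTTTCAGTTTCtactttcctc
Rsad2, ISRE core, chr12:26456553-26456582, minus strand: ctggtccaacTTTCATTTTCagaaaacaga
Socs1, ISRE core, chr16:10785594-10785623, minus strand: gccggaaagaGAAACCGAAAgcgggggtgg
Gbp2, ISRE core, chr3:142620594-142620623, plus strand: actcttttagTTTCACTTTCactgtcttaa
Socs3, GAS, chr11:117969502-117969530, minus strand: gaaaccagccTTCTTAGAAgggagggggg
Irf1, GAS, chr11:53769914-53769942, plus strand: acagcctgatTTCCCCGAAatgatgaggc
Ifit3 held both of these matches: the capital letters at chr19:34583397-34583426 are those of Stat2, and those at chr19:34583363-34583392 are those of Gbp2, which was higher in the Pkm2-/- library.

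STAT3-type targets were mixed while Stat3 was at a ratio of 1.09. Of 15 measured genes 5 were at least 2-fold lower and none was as much higher, against 1.90% and 1.42% of all genes. The median log2 ratio of the list was -0.51. It was -0.27 with a pseudocount of 5 and -0.30 with a mean of at least 5 FPKM. Saa1, a serum amyloid A gene with a close copy, had 27.5 FPKM in the Pkm2-/- library and 250.2 FPKM in the wild type library, and Lrg1 stood at 0.334 FPKM in the Pkm2-/- library and 6.94 FPKM in the wild type library. Reg3b and Reg3g, lectins that act on bacteria, and Socs3 were the other 3, at log2 ratios of -2.41, -1.97 and -1.55. Pim1 (13.8 FPKM in Pkm2-/-, 8.11 FPKM in wild type) and Birc5 (25.4 FPKM in Pkm2-/-, 16.3 FPKM in wild type), which promote survival and division of cells, were higher.

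STAT5-type targets had a median log2 ratio of 0.03 over 7 measured genes, and none was 2-fold apart. This median has no firm direction: it was -0.04 with equal medians and 0.36 with a mean of at least 5 FPKM. Ccnd1, which encodes cyclin D1, had 75.4 FPKM in the Pkm2-/- library and 43.2 FPKM in the wild type library, and Socs2 (13.1 FPKM in Pkm2-/-, 17.1 FPKM in wild type) and Bcl6 (1.85 FPKM in Pkm2-/-, 2.62 FPKM in wild type) lay on the other side. Pim1 is on this list as well as on that of STAT3. Cish, a direct target of STAT5, stood at 5.04 FPKM in the Pkm2-/- library and 4.63 FPKM in the wild type library, a ratio whose counting interval held 1.

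Of 13 STAT6-type targets 5 were measured, and Arg1, Retnla and Chil3 lay under 1 FPKM in both libraries. Alox15, a lipoxygenase gene, had 7.85 FPKM in the Pkm2-/- library and 0.574 FPKM in the wild type library, Retnlb, a product of goblet cells, 408 FPKM in the Pkm2-/- library and 289 FPKM in the wild type library, and Clca1, also of goblet cells, 294 FPKM in the Pkm2-/- library and 768 FPKM in the wild type library. With Socs1, which is on this list too, they went both ways, and the median of 0.70 was 0.09 without the filter on low genes. Stat6 itself stood at a ratio of 1.15.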

How the data were processed

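The authors deposited FPKM values, each beside a symbol, an Ensembl gene ID and a locus. The files have no header, so the unit rests on the submitters' processing notes, which name Cufflinks 2.2.1, Cuffdiff (versions 2.2.1 and 1.3.0), TopHat2 2.1.1 and Bowtie2 2.2.9, and on the values. The notes name the build mm8, but 99.96% of the loci of IDs found in GENCODE M21 overlap their gene on GRCm38, so positions are given on GRCm38. Values above 0 alone are listed.

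Values that share a symbol were summed and an unlisted gene was set to 0. The log2 ratio was log2((Pkm2-/- FPKM + 1)/(wild type FPKM + 1)), which understates differences of low genes; a plain ratio is of FPKM. Counts and medians cover genes whose mean reached 1 FPKM. A low gene could pass this filter through the library where it was high alone, so counts of such genes partly follow from the filter. A counting interval is the exact 95% Clopper-Pearson interval for fragment numbers. These were derived from the value of 1 fragment, 0.0465 FPKM times kb in the Pkm2-/- and 0.0530 in the wild type library, and the longest transcript; they cover counting error only. FPKM also depends on a library's abundant transcripts: mitochondrial genes and their nuclear copies made up 15.1% and 10.97% of the Pkm2-/- sum, and 16.8% and 13.2% of the wild type sum. Calculations used Python 3.11.15 with scipy 1.17.1 and were checked on simulated counts.

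Genes named outside the members were, per list, the 2 highest and the 2 lowest log2 ratios, the 2 genes nearest to each member and the most abundant marker; others are stated. The members and lists were chosen with earlier results of these data known.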

Additional observations from a re-analysis of the deposited data

How the results depend on the processing

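The alternatives were pseudocounts of 0.1 and 5, libraries scaled to equal medians, equal upper quartiles or equal sums without mitochondrial genes and their copies, no filter on low values, and a mean of at least 5 FPKM. No member was 2-fold apart under any of these. With equal medians 1 member, Stat2, was at least 1.5-fold lower, where none was before, and the median log2 ratio of all genes shifted by -0.08, to -0.01. The median of the members ranged from 0.03 with equal medians to 0.12 with a pseudocount of 0.1. Of the values that are not summaries of the members, 25 moved beyond counting error or 1.5 times and 227 did not. No ratio or list median at least 1.5-fold apart changed sign. Among smaller ones Jak1, Jak3 and the medians of the STAT5-type targets and of the partners and adaptors did, with equal medians. Of the values that moved, the count of 3 receptor chains at least 2-fold higher was 0 with a pseudocount of 5. It was also 0 with a mean of at least 5 FPKM, since that removes these chains. With the mean transcript length in place of the longest, the intervals of Tyk2 (0.988 to 1.23) and Stat5a (0.966 to 1.48) held 1. Depth limits Stat5a most, at about 344 fragments in the Pkm2-/- library and 253 in the wild type library. No paired analysis was possible because each genotype has 1 library.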
